A study of Sus scrofa with 24 samples.

Results

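The genes described here are 7 matrix and tenocyte genes that are best known from cartilage and tendon: COL11A1, ACAN, COMP, CILP, FMOD, TNMD and C1QTNF3. They were chosen by symbol from their high levels in the infarcted against the normal region on these arrays, so the differences between regions that led to the choice are given as a description with no test. A probe was taken where its name in the array files, or an accession listed for it, maps to one of the symbols; COLL11A1, a spelling used in the array files, was joined to COL11A1. That gave 16 of 43603 probes, for 7 of 6442 named genes. All 16 probes passed the filter on dim spots, and none was saturated.

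RNA came from the heart muscle of 9 domestic pigs, 1 array per tissue sample and 24 arrays in all. A closed-chest, reperfused myocardial infarction was made in every pig, which models a scar after the blocked vessel has been reopened. All pigs took 250 mg aspirin and 300 mg clopidogrel before the infarct and 100 mg and 75 mg daily afterwards. After 1 month they were randomized to percutaneous injections into the heart wall, and tissue was collected 1 month after that. Pigs 11, 12, 13, 14, 15 and 16 were in the secretome arm (n = 6): they were given what apoptotic mononuclear cells of peripheral blood release into culture medium. Pigs 10, 18 and 40 were in the medium arm (n = 3), given medium as placebo. Arrays of the infarct core came from 6 secretome and 3 medium pigs, those of the border zone from 6 and 3, and those of the normal region from 4 and 2, since pigs 12, 13 and 40 lack the last. The border zone was also the zone of injection. The design text names 8 pigs per arm.

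Cartilage and tendon withstand load because their cells lay down fibril-forming collagens, space them with large and small proteoglycans, and tie them together with adaptor proteins. COL11A1 encodes a chain of collagen XI, which forms the core of thin cartilage fibrils; ACAN encodes aggrecan, the proteoglycan that holds water between them. COMP, a pentameric thrombospondin, and CILP, a secreted protein of the middle layer of cartilage, bind to the collagen network. FMOD encodes fibromodulin, a small leucine-rich proteoglycan that steers collagen fibril growth in tendon, and TNMD encodes tenomodulin, a membrane protein that marks mature tendon cells in mice. C1QTNF3 encodes a secreted C1q-like protein studied in growth plate cartilage of mice. In the heart, collagen scars are made by fibroblasts, and a fibroblast state with cartilage-type transcripts is known from late scars in mice.

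All values are log2 signals of a probe minus the 75th percentile of its array, called levels here, so 0 is the signal of a bright but not extreme probe and a step of 1 is a 2-fold change. Levels can be compared between arrays for one probe, not between probes. The arrays differed in brightness (the 75th percentile ranged from 210 to 617 intensity units, and 61.5% to 75.6% of probes were well above background), with the lowest of both on the border zone array of medium pig 40. They were scanned in 2 series of 12, and each pig lies within 1 series: secretome pigs 12, 13 and 16 and medium pigs 18 and 40 in series 1, and secretome pigs 11, 14 and 15 and medium pig 10 in series 2. Between arrays of different pigs, deviations from the group means correlated at 0.439 on average within a series (94 pairs) and at -0.454 across series (118 pairs), and for 35% of kept probes the infarct cores of the series did not overlap. Values within each scan series are therefore given beside the pooled ones for several comparisons. Series 1 holds normal regions of secretome pig 16 and medium pig 18 only, so its differences from the normal region rest on 1 array per arm there. With 9 pigs, and 3 in the medium arm, the number of arrays limits the precision.

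The probes themselves show what was read. The COL11A1 probe below lies in the triple helix: the capitals mark 6 GGN triplets, each a glycine codon, spaced 9 bases apart as in the Gly-X-Y repeat. At least 6 GGN at that spacing along either strand were found in 8 of 43603 probes (0.0183%), and in 1 of the 6 COL11A1 probes. It is shown because it read a smaller regional difference than the other 5.
COL11A1 probe 4: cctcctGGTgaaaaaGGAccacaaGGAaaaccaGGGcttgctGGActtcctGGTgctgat

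The COMP probes overlap by 20 bases, in capitals, and read neighbouring stretches of the same transcript, yet with different spans of signal.
COMP probe 1: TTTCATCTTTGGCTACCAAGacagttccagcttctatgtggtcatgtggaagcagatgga
COMP probe 2: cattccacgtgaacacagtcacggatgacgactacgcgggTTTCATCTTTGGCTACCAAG

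The third ACAN probe is the one probe of the 16 that did not separate infarct core from normal region. It is made of a repeat: GAGNAGCCA, in capitals, occurs 3 times at 18 base steps. Of all probes, 116 (0.266%) hold that motif at least once on either strand, and 1 (0.00229%) holds it as often as 3 times, which is this one. The other ACAN probes share 48 bases with each other and are in effect 1 reading.
ACAN probe 3: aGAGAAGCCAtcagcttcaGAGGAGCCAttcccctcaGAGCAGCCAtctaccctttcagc

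FMOD and TNMD were each read by a single probe of 60 bases, shown because the result for each gene rests on it alone.
FMOD probe 1: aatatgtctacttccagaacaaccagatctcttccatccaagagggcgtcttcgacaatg
TNMD probe 1: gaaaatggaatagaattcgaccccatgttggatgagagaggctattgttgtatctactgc

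The first question is how the genes differ between the regions of the infarcted heart. On the brightest probe of each, all 9 infarct cores lay above all 6 normal regions for 7 of 7 genes, and for 15 of 16 probes. Across all kept probes 7.41% show such a separation; the genes were chosen from this contrast, so the count is given without a reading. The fitted difference between infarct core and normal region, with both arms weighted equally, ranged from 4.40 to 6.76 on the log2 scale over the 7 genes, with a median of 5.89. Over all 6442 named genes the median was -0.07, with 27.6% called higher and 30.9% lower by limma at an adjusted p under 0.05. In whole tissue, fewer cells of a type and less RNA per cell cannot be told apart.

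Among the collagen and proteoglycan genes of cartilage, COL11A1 had levels of 3.34 to 4.53 in the 6 secretome infarct cores (median 3.91) and of 4.45, 2.89 and 3.95 in the medium infarct cores of pigs 10, 18 and 40. In the border zone it had -4.59 to 2.19 in the secretome arm (median -0.98) and 0.53, 1.64 and 1.81 in the medium arm. In the normal region it had -4.54, -1.90, -1.52 and -2.78 in secretome pigs 11, 14, 15 and 16, and -3.26 and -3.58 in medium pigs 10 and 18. The infarct cores were thus high and close together, the normal regions low, and the border zones spread over the whole gap, with secretome pig 11 as low as normal muscle. Within pigs, infarct core minus normal region was 4.87 to 8.09 over 6 of 6 pigs, and within scan series 1 and 2 it was 7.0 and 7.07. COL11A1 probes 2, 3, 5 and 6 gave differences of 6.71 to 7.28. Only 3, 3, 1 and 0 of 6 normal regions were well above background on them, so the size of these differences rests in part on normal muscle at background. For probe 6, with none, the infarct core was at least 56.3-fold higher. The bound sets the mean of the bright region against that of the dim one, in which each array counts at no less than the dimmest probe still well above background. The probe in the triple helix, probe 4, gave 4.12 ± 0.39 (SE). Probe 5 separated infarct core from normal region, but its infarct cores overlapped the border zones, which reached 0.35. It also separated the scan series. In the infarct core it lay between 1.40 and 2.61 on the 5 arrays of series 1. On the 4 arrays of series 2 it lay between -1.83 and -0.51 there.

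ACAN, which in heart is normally made in valves rather than muscle, had levels of 2.38 to 5.72 in secretome infarct cores (median 3.78) and of 5.0, 2.70 and 4.06 in medium infarct cores. The border zones reached -2.77 to 2.18 in the secretome arm (median -0.83) and 1.03, 1.13 and 0.04 in the medium arm. Normal regions had -2.53, -2.53, -1.32 and -2.60 in secretome pigs 11, 14, 15 and 16 and -2.89 and -3.23 in medium pigs 10 and 18. Infarct cores stood above every border zone as well as above every normal region, and the lowest infarct core (secretome pig 15, at 2.38) was close to the highest border zone (secretome pig 16, at 2.18). The within-pig difference between infarct core and normal region was 3.70 to 8.25, higher in 6 of 6 pigs (19.2% of kept probes were higher in every pig), and 6.67 and 7.01 within scan series 1 and 2. The second ACAN probe gave 6.93 ± 0.67. The repeat probe gave 0.44 ± 0.31: its infarct cores had -4.05 to -1.15, its border zones -4.03 to -2.66 and its normal regions -3.77 to -2.62, so the regions overlapped. It was well above background on all 24 arrays. Its within-pig difference followed the scan series. Infarct core minus normal region was 1.44, 0.75, 1.97 and 0.72 in pigs 10, 11, 14 and 15 of series 2. In pigs 16 and 18 of series 1 it was -0.34 and -0.77.

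Of the adaptor proteins, COMP was measurable in every sample. It had 5.11 to 7.56 in secretome infarct cores (median 6.27) and 6.54, 5.36 and 5.63 in medium infarct cores. Border zones had 1.31 to 5.0 (median 3.77) with secretome and 4.92, 5.08 and 2.88 with medium, and normal regions had 1.60, 2.49, 2.96 and 1.47 in secretome pigs 11, 14, 15 and 16 against 0.99 and 0.79 in medium pigs 10 and 18. The lowest infarct core (5.11) lay just above the highest border zone (5.08). COMP differed by 4.67 ± 0.49 between infarct core and normal region on this probe and by 8.47 ± 1.01 on the probe that overlaps it by 20 bases, which reached -6.84 in the normal region of medium pig 10 and was well above background in 4 of 6 normal regions. The fold for COMP therefore depends on the probe, while the order of the regions does not.

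CILP overlapped between infarct core and border zone. Levels were 3.30 to 5.65 in secretome infarct cores (median 3.78) and 5.13, 3.29 and 2.66 in medium infarct cores. Border zones had -0.41 to 3.93 with secretome (median 2.46) and 4.51, 3.68 and 1.31 with medium, and normal regions had 0.59, 1.53, 1.74 and -0.84 in secretome pigs 11, 14, 15 and 16 and -0.82 and -1.12 in medium pigs 10 and 18. In 7 of 9 pigs the infarct core was higher, and in secretome pig 15 and medium pig 18 infarct core minus border zone was -0.63 and -0.39. The fitted difference between infarct core and border zone was 1.32 ± 0.51 (SE) for CILP, beside 3.91 ± 0.57 for ACAN; whether the genes differ in it was not tested. It was the smallest of the 7 under the scaling used here, but TNMD was lower, at 0.90 beside 1.45 for CILP, with normexp correction.

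FMOD and TNMD, the tendon genes, were at or near background in normal muscle. FMOD had -0.54 to 1.62 in secretome infarct cores (median 0.02) and 0.98, -0.34 and 0.07 in medium infarct cores, against -5.40 to -1.44 (median -2.97) and -1.71, -1.31 and -3.20 in the border zones of the same arms. In the normal region it had -5.79, -3.88, -2.89 and -5.65 in secretome pigs 11, 14, 15 and 16 and -5.12 and -5.78 in medium pigs 10 and 18; only secretome pigs 14 and 15 were well above background there. The fitted difference from the normal region was 5.38 for the infarct core and 2.45 for the border zone. Its size depended on how background was treated: it was 2.76 and 0.88 with normexp correction, and 2.01 and 0.54 in the authors' deposited table, in the same regions.

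TNMD had the largest spread over border zones of the 7 genes (SD 2.58, n = 9). It had -1.35 to 1.44 in secretome infarct cores (median 0.37) and -1.02, -0.83 and 0.19 in medium infarct cores. In the border zone secretome pigs 11, 12, 13, 14, 15 and 16 had -7.11, -0.37, -3.58, -4.45, -3.95 and 0.67, and medium pigs 10, 18 and 40 had -2.54, -1.01 and 0.36. Border zones of secretome pigs 12 and 16 and medium pigs 18 and 40, all in scan series 1, lay within the range of the infarct cores. That of secretome pig 11 was not well above background. The border zone mean was -0.78 in series 1 and -4.51 in series 2, beside 0.31 and -0.66 in the infarct core. Infarct core minus border zone was 0.91 within series 1 and 3.08 within series 2. Normal regions had -6.12, -6.25, -6.43 and -4.91 in secretome pigs 11, 14, 15 and 16 and -6.74 and -7.39 in medium pigs 10 and 18, with 1 of 6 arrays above background (secretome pig 16). The fitted difference from the normal region was 5.89 for the infarct core and 4.03 for the border zone, so that here too the size rests on normal muscle at background. It was 2.04 and 1.14 with normexp correction, and 1.32 and 0.69 in the authors' deposited table.

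C1QTNF3 was measurable in every sample. It had 2.78 to 5.80 in secretome infarct cores (median 5.14) and 4.55, 4.94 and 5.10 in medium infarct cores, and -3.21 to 3.77 (median 1.25) and 2.41, 4.30 and 4.53 in the border zones of the same arms. Normal regions had -2.67, -0.70, -0.16 and -0.59 in secretome pigs 11, 14, 15 and 16 and -2.80 and -1.32 in medium pigs 10 and 18. All but 1 border zone, that of secretome pig 11, lay above every normal region, and the border zones of medium pigs 18 and 40 came within 0.64 and 0.56 of their own infarct cores. The series 1 arrays of the infarct core kept within 4.94 to 5.46, and those of series 2 ran from 2.78 to 5.80.

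**Figure D1:**
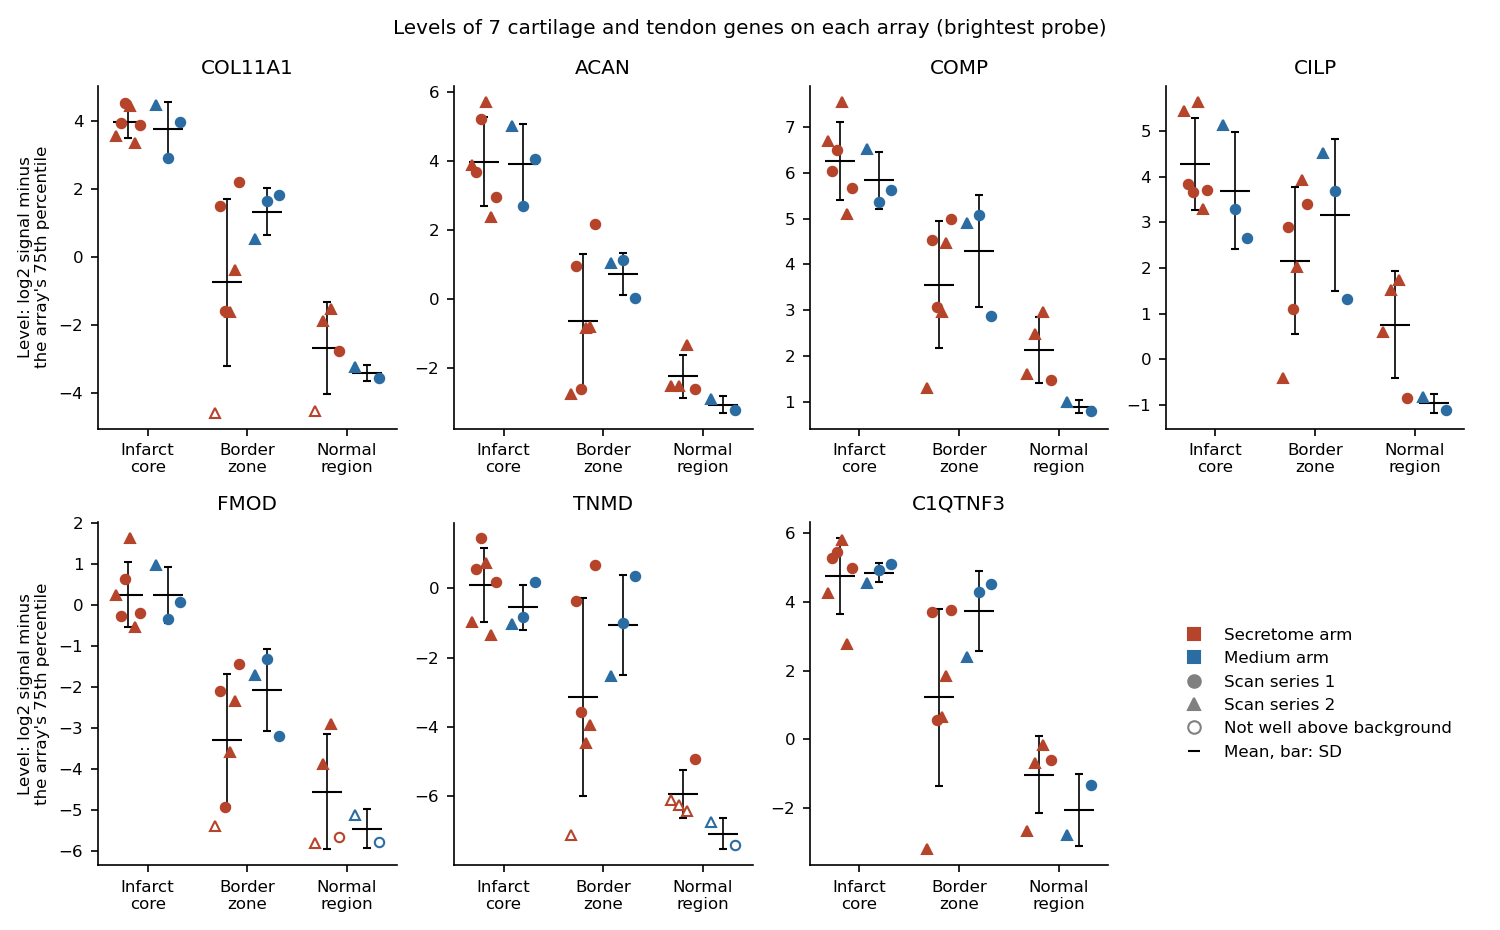
Level (log2 signal minus the array's 75th percentile) of the brightest probe of each gene on 24 arrays, by region and arm; circles and triangles are scan series 1 and 2, open symbols are not well above background, and lines show mean and SD. All infarct cores lie above all normal regions in each panel, and border zones span the gap, from -7.11 to 0.67 for TNMD.

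**Figure D2:**
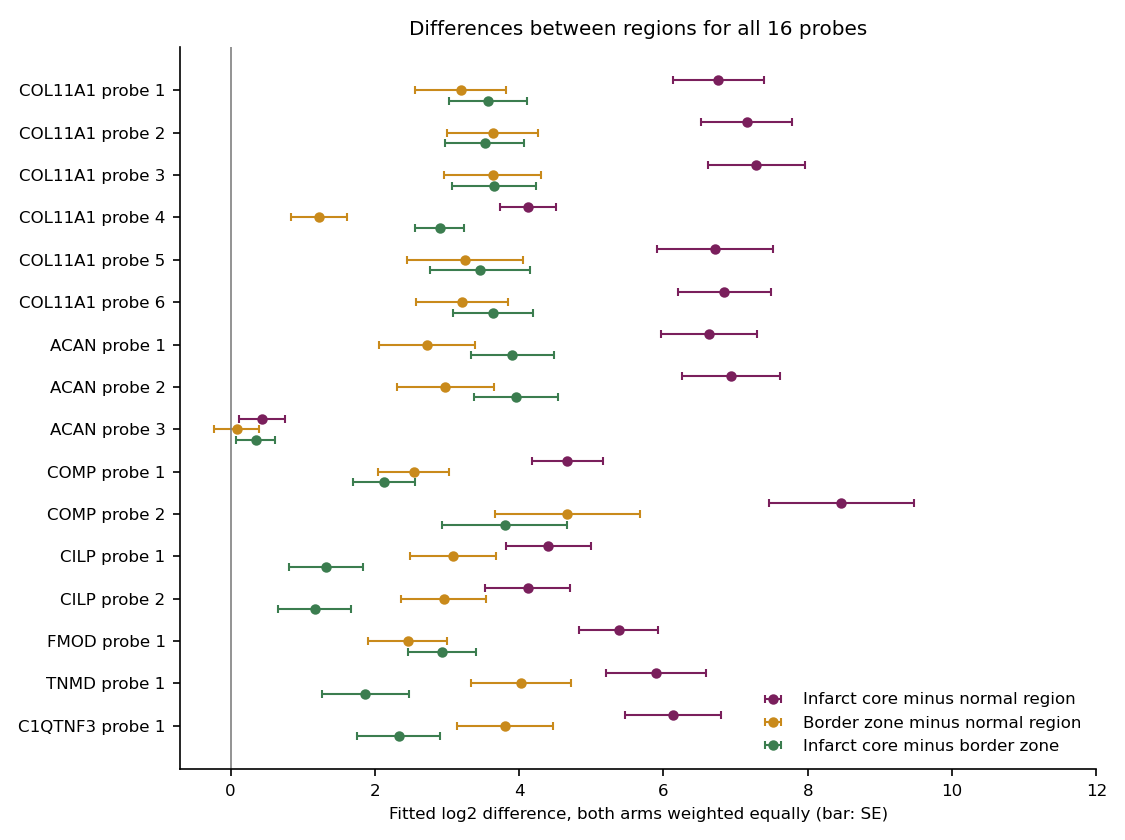
Fitted log2 differences between regions for the 16 probes, with both arms weighted equally and bars of 1 SE. The repeat probe of ACAN (probe 3) lies near 0 at 0.44, the triple helix probe of COL11A1 (probe 4) at 4.12, and COMP probe 2 at 8.47 beside 4.67 for COMP probe 1.

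The second question is where the border zone stands. Border zone minus normal region was 2.54 to 3.81 for the 5 genes other than FMOD and TNMD, whose normal regions were mostly at background, and infarct core minus border zone was 1.32 to 3.91 for all 7. In the authors' deposited table border zone minus normal region was 1.54 for COL11A1 and 1.53 for ACAN, beside 3.19 and 2.72 here. On the brightest probe of each gene, the border zone of FMOD was higher than the normal region in 6 of 6 pigs with both regions. For COL11A1, ACAN, COMP, CILP, TNMD and C1QTNF3 it was higher in 5 of 6, and the exception was secretome pig 11 each time. Not all other probes gave these counts: COL11A1 probe 4 gave 4 of 6, with secretome pigs 11 and 14 lower. ACAN probes 2 and 3 gave 6 of 6 and 2 of 6. A border zone above the normal region in every such pig was found for 1.97% of kept probes, and limma called 0.466% of kept probes in either direction. All 9 border zones lay above all 6 normal regions for 0 of 7 genes, beside 0.0175% of kept probes. All 9 infarct cores lay above all 9 border zones for COL11A1, ACAN, COMP and FMOD and not for CILP, TNMD and C1QTNF3, beside 1.46% of kept probes. The infarct core was higher than the border zone of the same pig in 9 of 9 pigs for these 4 and for C1QTNF3 (13.3% of kept probes). For CILP and TNMD it was higher in 7 of 9. These too are counts on the brightest probes. On COL11A1 probe 5 and ACAN probe 3 the infarct cores and border zones overlapped. CILP probe 2 was higher in the infarct core in 6 of 9 pigs, and ACAN probe 3 in 4 of 9. Within scan series, border zone minus normal region was 3.08 to 4.56 in series 1 and 2.12 to 3.08 in series 2 for those 5 genes. For FMOD it was 3.34 and 1.91, and for TNMD 5.45 and 2.65, in the same order. Infarct core minus border zone was 0.87 to 3.29 in series 1 and 1.79 to 4.95 in series 2 over all 7.

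The genes moved together from one border zone to the next. Secretome pig 11 was the lowest of 9 border zones for 7 of 7 genes, with a mean over the 7 of -3.17, and secretome pig 16 had the highest mean, 2.26, and was the highest for 3 of 7. Border zones of secretome pigs 12, 15 and 16 and medium pigs 10 and 18 stood above all normal regions for 7 of 7 genes. Those of secretome pig 14 and medium pig 40 did so for 4, that of secretome pig 13 for 3 and that of secretome pig 11 for 0. In the infarct core, secretome pig 14 was highest for 5 of 7 genes and secretome pig 15 lowest for 5 of 7. Secretome pig 15 was at the same time the highest normal region for 6 of 7 (COL11A1, ACAN, COMP, CILP, FMOD and C1QTNF3). Its within-pig difference between infarct core and normal region was the smallest of 6 pigs for 7 of 7 genes. This difference was 2.15 for COMP, 1.56 for CILP and 5.08 for TNMD, the last close to 5.10 in secretome pig 16. Over 9 border zones, Pearson's r between pairs of the 7 genes was 0.479 to 0.987 (median 0.829 over 21 pairs), and over 9 infarct cores -0.08 to 0.936 (median 0.614). These are descriptions: the points share pigs and scan series.

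Cell type markers were read on the same arrays. The mean level of 7 fibroblast markers (among them CTHRC1, POSTN and COL1A2) was 2.69 to 4.12 in infarct cores, -0.35 to 2.71 in border zones and -0.12 to 1.63 in normal regions. Its correlation with the mean of the 7 genes was 0.974 over 9 border zones and 0.861 over 9 infarct cores. The mean of 7 cardiomyocyte markers was 2.84 to 8.76 in infarct cores, 7.65 to 9.26 in border zones and 8.56 to 9.19 in normal regions, so muscle RNA was present in every sample, least in the infarct core of medium pig 40. Its correlation with the 7 genes was -0.736 in border zones and -0.133 in infarct cores. The 5 macrophage markers ran from 2.05 to 3.94 in infarct cores, from 0.601 to 2.51 in border zones and from 0.737 to 1.72 in normal regions, with correlations to the 7 genes of 0.887 in border zones and -0.158 in infarct cores. The 4 mesothelial markers, those of the heart's outer lining, ran from -0.94 to 0.27, from -2.56 to -0.02 and from -2.88 to -1.16 in the same regions (0.903 in border zones, 0.127 in infarct cores). Valves and their chords hold ACAN and TNMD, and of that marker list only SOX9 was measured, at -4.08 to -2.26 in infarct cores, -6.29 to -3.44 in border zones and -6.20 to -4.38 in normal regions; its correlation with the 7 genes was 0.840 in infarct cores and 0.118 in border zones. What part the cell make-up of each sample has in the levels was not tested.

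**Figure D3:**
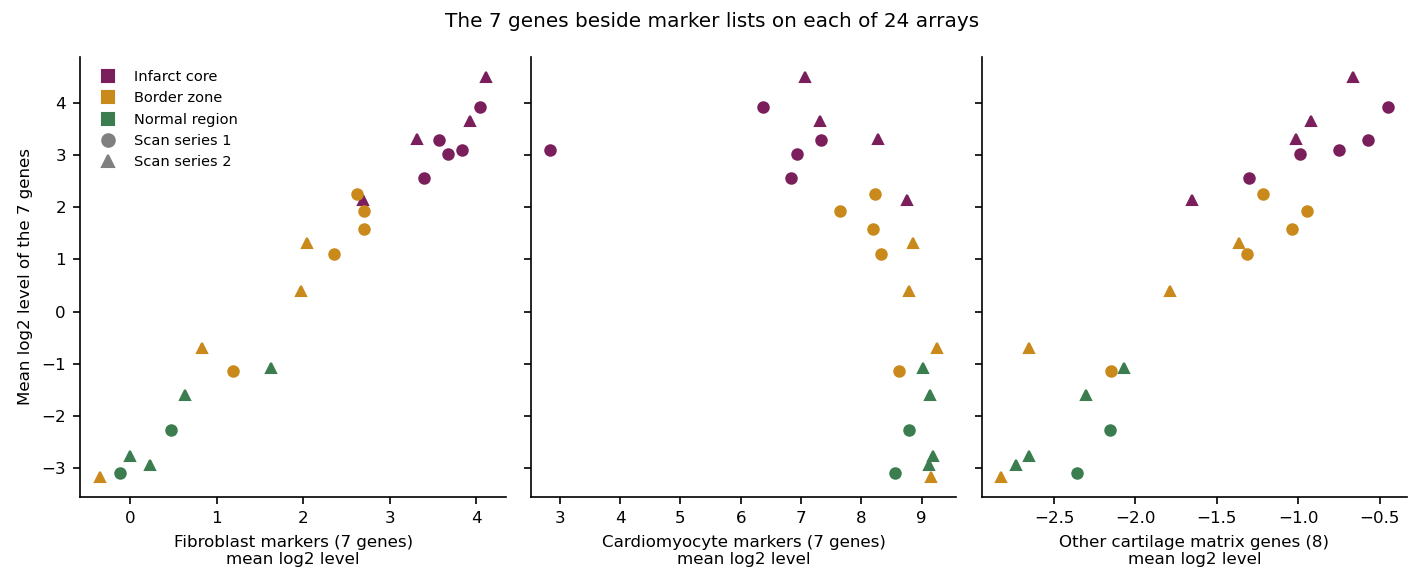
Mean level of the 7 genes on each of 24 arrays against the mean level of 7 fibroblast markers, 7 cardiomyocyte markers and 8 other cartilage matrix genes (all log2); colours are regions and shapes scan series. Over the 9 border zones the correlation is 0.974 with the fibroblast markers and -0.736 with the cardiomyocyte markers, and the infarct core of medium pig 40 stands alone at 2.84 on the cardiomyocyte axis.

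The third question is the randomized one, secretome against medium, which played no part in choosing the genes. No gene passed in the infarct core, the border zone or the normal region (limma, adjusted p of 0.981 to 1.00, 0.685 to 0.821 and 1.00), and none of the 16 probes did. Among all kept probes limma called 0.0146% in the infarct core (5 probes, all lower) and 0 in the border zone and the normal region, while 1685, 2475 and 596 had an unadjusted p under 0.05. Of the 7 genes, 0, 1 and 0 did.

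In the infarct core the arms overlapped for every gene, and the differences were -0.09 to 0.65. COL11A1 averaged 3.95 ± 0.47 in the secretome arm and 3.76 ± 0.80 in the medium arm (SD, n = 6 and 3), and ACAN averaged 3.98 ± 1.29 and 3.92 ± 1.16. The intervals are wide: for COL11A1 the 95% confidence interval of secretome minus medium ran from -2.20 to 2.57, for COMP from -1.43 to 2.29 and for C1QTNF3 from -2.60 to 2.41. Differences of 2-fold in either direction therefore lie inside the intervals of all 7 genes. On simulated data with 200 changed probes per size, limma recovered 45 at 2-fold and 129 at 4-fold in this comparison. The changed probes were drawn from all kept probes, and no scan series effect was simulated. These counts do not give the sensitivity for the 7 genes, whose SE here was 0.90 to 1.27.

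In the border zone, where the injections were placed, 7 of 7 differences were below 0, from -2.52 to -0.73, and 16 of 16 probes had that sign; over all kept probes the median was -0.03. C1QTNF3 averaged 1.22 ± 2.59 in the secretome arm and 3.75 ± 1.16 in the medium arm (SD, n = 6 and 3), a difference of -2.52 ± 1.20 (SE, 95% confidence interval -5.03 to -0.02), with a limma p of 0.0484 before and 0.685 after adjustment over all probes. COL11A1 averaged -0.75 ± 2.45 with secretome and 1.33 ± 0.70 with medium, and TNMD averaged -3.13 ± 2.85 and -1.06 ± 1.45 in the same arms; both had a difference of -2.08 and -2.07 with intervals that include 0. For each gene the highest secretome border zone lay above the medium mean, and secretome pig 11 was the lowest of all, so the arms overlapped. The genes follow each other between pigs, so their common sign is not 7 separate observations. Within scan series 1 the differences were -1.73 to 0.23, and within series 2, where the medium arm is pig 10 alone, -2.73 to -2.0. Leaving out 1 pig at a time kept all 7 below 0 and moved the sizes: without secretome pig 11, COL11A1 was -1.31, TNMD -1.27, FMOD -0.81, COMP -0.28 and C1QTNF3 -1.64, and without medium pig 10, CILP was -0.34. At the other end, CILP was -1.94 and COMP -1.44 without medium pig 40. The fibroblast markers had the same order, with a mean of 1.5 (lowest -0.35, highest 2.71) in secretome border zones and 2.37 (2.04 to 2.70) in medium border zones. Macrophage markers averaged 1.36 (0.601 to 1.98) in secretome and 2.19 (1.91 to 2.51) in medium border zones, and mesothelial markers -1.05 (-2.56 to -0.27) and -0.36 (-0.73 to -0.02). Other lists went the other way: cardiomyocyte markers averaged 8.71 in secretome and 8.28 in medium border zones, and endothelial markers 2.26 and 1.65. So did smooth muscle markers (4.51 and 4.43) and SOX9 (-4.33 and -4.78). Skeletal muscle markers were lower with secretome (-4.00 and -3.65), as the 7 genes were, and adipocyte markers differed little (1.21 and 1.24). Of the fibroblast, macrophage and mesothelial markers, 1 of 7, 2 of 5 and 0 of 4 had an unadjusted limma p under 0.05. Over all kept probes 2475 of 34362 did. None of these markers passed after adjustment. Their part in the difference was not tested.

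In the normal region 7 of 7 differences were above 0, from 0.79 to 2.12, with 4 and 2 arrays. CILP averaged 0.75 ± 1.17 in the secretome arm and -0.97 ± 0.21 in the medium arm (SD). Its fitted difference, from the fit with a random effect of pig, is not that of these means. It was 2.12 ± 1.23 (SE) with a limma p of 0.100 before and 1.00 after adjustment. For COMP the secretome pigs lay at 1.47 to 2.96 and medium pigs 10 and 18 at 0.99 and 0.79. The fitted difference was 1.57 ± 1.02 (SE), with a limma p of 0.139 before adjustment, and it did not pass. The arms overlapped for COL11A1, CILP, FMOD and C1QTNF3. For ACAN, COMP and TNMD they did not, but the share of all kept probes without overlap is not given here. With 4 and 2 arrays the lack of overlap is given without a reading. FMOD was well above background in 2 of 4 secretome pigs and 0 of 2 medium pigs, and TNMD in 1 of 4 and 0 of 2.

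**Figure D4:**
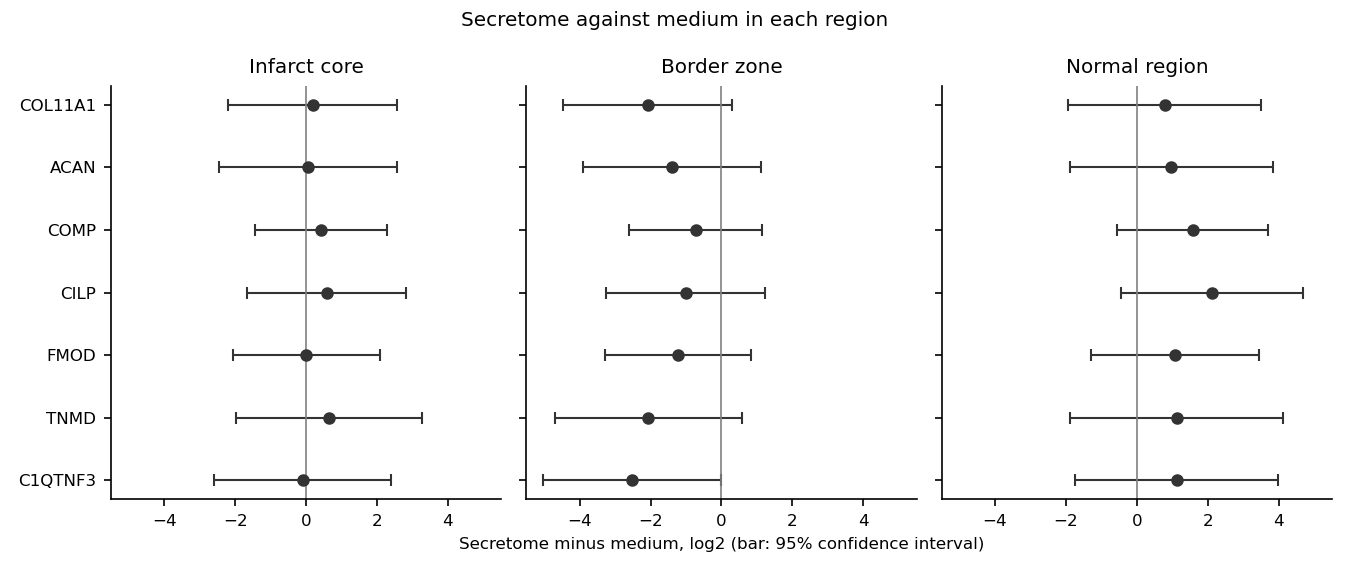
Secretome minus medium for the 7 genes in the infarct core, the border zone and the normal region (log2), with bars for the 95% confidence interval. All 7 intervals include 0 in the infarct core and the normal region, and 6 of 7 do in the border zone, where C1QTNF3 ends at -0.02.

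Whether the step between regions depended on the arm was tested by interaction. For infarct core minus normal region the interaction was -1.54 to -0.47 over the 7 genes, with limma adjusted p of 1.00 for each. For infarct core minus border zone it was 1.16 to 2.72, positive for 7 of 7 genes: 2.72 ± 1.20 for TNMD (SE; limma p of 0.0348, adjusted p of 0.841) and 2.43 ± 1.14 for C1QTNF3 (0.0459 and 0.841). Limma called 0 of 34362 probes in either interaction, with 1170 and 1877 at an unadjusted p under 0.05. The second interaction was 0.36 to 1.96 within scan series 1 and 1.5 to 3.11 within series 2. It holds the same border zone values as the comparison of arms there and is no separate evidence.

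Around the 7 genes, 86 other genes of cartilage, tendon and bone biology in 10 lists were measured, and their limma calls between regions are given. In the infarct core against the normal region 58 were higher and 6 lower in limma, beside 27.6% and 30.9% of all named genes, with 22 not past the threshold. The lists share genes with each other and, through COL1A2 and LOX, with the fibroblast markers. They were put together with earlier results of these data known, so counts and adjusted p describe these genes and are no independent tests. Some genes passed the filter mostly through infarct cores. COL9A2 was well above background in 8 infarct cores, 3 border zones and 0 normal regions, and MATN3 in 8, 2 and 0.

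Of the tendon matrix list 13 of 13 rose, with a median of 2.53 (all named genes -0.07). TNC, tenascin C, which appears where tendon attaches to muscle and in healing wounds, rose by 5.91 ± 0.58 (limma adjusted p = 2.37e-07, 6 of 6 pigs). COL12A1, a collagen that coats fibrils, rose by 4.80 ± 0.56, and COL1A2, a chain of the main tendon and scar collagen, by 3.37 ± 0.36. The remaining members were collagens V, VI and XIV, LOX, DPT and EGR1, at 0.74 (COL5A3) to 2.86 (COL5A1).

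Of 8 other cartilage matrix genes 5 rose, 1 fell and 2 did not pass, with a median of 1.77. MATN2, a matrilin that is also made outside cartilage, rose by 1.83 ± 0.26. COL9A2, a chain of the collagen that decorates cartilage fibrils, and MATN3, a matrilin of cartilage, were well above background in 8 of 9 infarct cores and 0 of 6 normal regions, at least 4.90-fold and at least 2.24-fold higher. The gene that fell, named after its value was seen, was COL10A1, the collagen of hypertrophic cartilage, at -0.55 ± 0.21 (limma adjusted p = 0.0306). EPYC, a small proteoglycan of growth cartilage, was well above background in 2 of 9 infarct cores, 2 of 9 border zones and 0 of 6 normal regions on its brightest probe, which did not pass; of its other probes 1 did, at 1.51 (limma adjusted p = 0.0411). Probes of 1 gene differed in their call for 4 of the 36 genes with several, EPYC, CYR61, GDF5 and TGFB1, named after their values were seen. COL2A1, the main collagen of cartilage, was not analysed here.

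Among relatives of single genes, 4 of 7 small leucine-rich proteoglycans rose (median 1.42), with BGN at 4.09 ± 0.47, LUM at 3.03 ± 0.40 and ASPN at 2.48 ± 0.36; all 3 bind collagen, as FMOD does. Both other thrombospondins rose, THBS3 by 3.74 ± 0.59 and THBS1 by 2.05 ± 0.28. Of the C1q and TNF related proteins 4 of 7 rose (median 1.17), with C1QTNF2 at 1.60 ± 0.28, C1QTNF1 at 1.20 ± 0.32 and C1QTNF12 at 2.63 ± 0.39 (well above background in 9 of 9 infarct cores and 1 of 6 normal regions). Of 5 lecticans, link proteins and hyaluronan partners 3 rose and 1 fell: VCAN, the large proteoglycan of soft tissue, rose by 3.26 ± 0.31 and CD44, a hyaluronan receptor, by 1.58 ± 0.26, while HAPLN3, a link protein, fell by 2.27 ± 0.32 (limma adjusted p = 8.05e-06, lower in 6 of 6 pigs).

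Enzymes that cut or build aggrecan were read next. ADAMTS4, which cuts it, rose by 1.99 ± 0.33, and 2 of 4 such proteases rose (median 0.89). Of 7 genes that build chondroitin sulfate, the sugar chain aggrecan carries, 4 rose (median 0.90), with CHSY1 at 1.80 ± 0.24, CSGALNACT2 at 1.14 ± 0.22 and PAPSS2 at 1.06 ± 0.25.

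Of 22 regulators and growth factors 15 rose and 1 fell (median 0.83). NOV, a matricellular factor, rose by 3.91 ± 0.47, TGFB3, a growth factor of cartilage and tendon formation, by 3.68 ± 0.43, and CTGF by 2.71 ± 0.36. SOX9, the transcription factor that directs chondrocyte genes, rose by 2.22 ± 0.36 (limma adjusted p = 3e-05) and was well above background in 9 of 9 infarct cores and 2 of 6 normal regions. RUNX2, a factor of bone and hypertrophic cartilage, rose by 1.05 ± 0.37 (limma adjusted p = 0.0202), higher in 5 of 6 pigs. The gene that fell, named after its value was seen, was RUNX3, at -1.28 ± 0.21. SCX, MKX, SOX5 and SOX6 were not analysed here.

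The 13 bone and mineral genes were divided, with 6 higher, 4 lower and 3 not past (median 0.28). SPP1, which macrophages also make, rose by 4.82 ± 0.55, SPARC by 2.46 ± 0.26 and MGP, an inhibitor of calcification, by 1.80 ± 0.34. The genes that fell, again named after their values were seen, were PHEX (-1.72), SP7 (-1.20), ANKH (-1.17) and COL10A1.

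**Figure D5:**
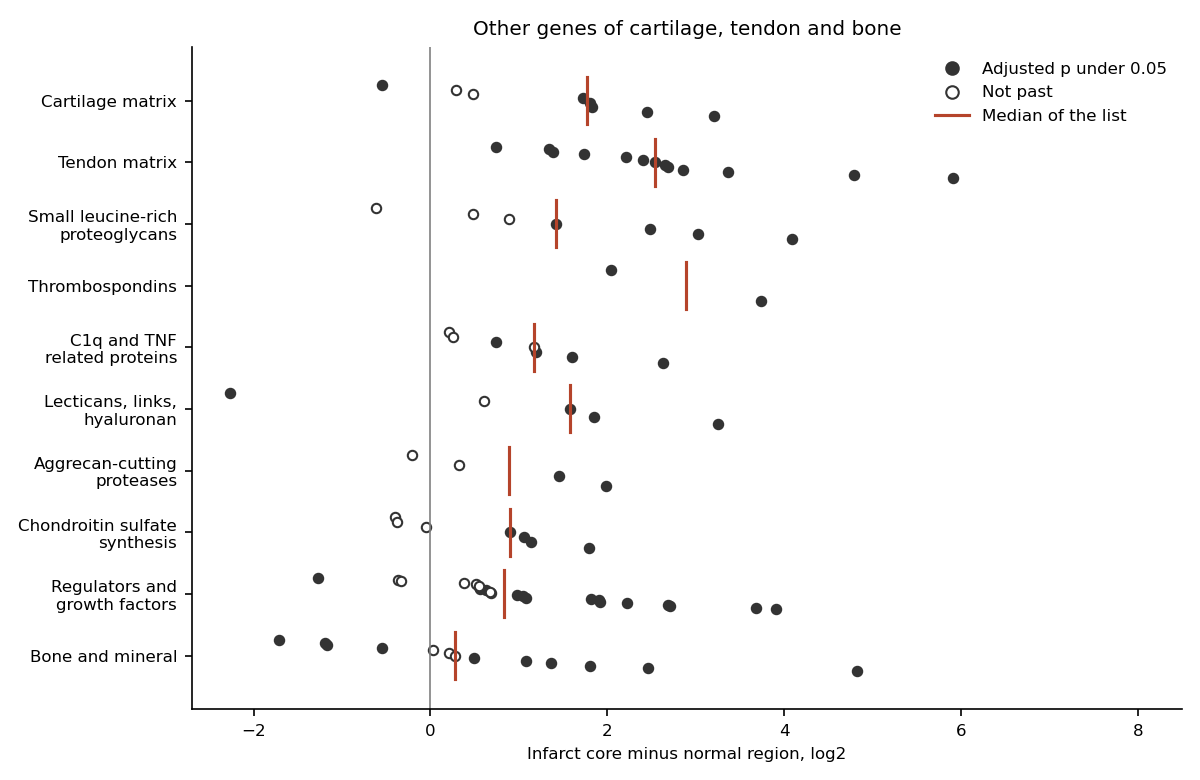
Infarct core minus normal region (log2) for the genes of 10 lists other than the 7 genes, each a point; filled points passed in limma at an adjusted p under 0.05, and the red line is the list's median. All 13 tendon matrix genes lie to the right of 0, and the bone and mineral genes on both sides, with a median of 0.28.

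Between infarct core and border zone, 58 of the 86 were higher and 5 lower, beside 25.7% and 26.4% of named genes. All 13 tendon genes were again higher, TNC by 2.67 ± 0.50, and WISP2, a matricellular relative of NOV and CTGF, was higher by 2.53 ± 0.17 in 9 of 9 pigs. COL27A1, a cartilage collagen, was higher by 1.09 ± 0.18, and ADAMTS1 by 1.26 ± 0.24. IBSP, a bone matrix protein, was higher by 1.55 ± 0.39 (well above background in 7 of 9 infarct cores and 2 of 9 border zones), and PHEX was lower, at -1.57 ± 0.27. Between border zone and normal region 2 of the 86 rose, beside 0.59% of named genes that rose and 0.0155% that fell: TNC by 3.23 ± 0.58 (limma adjusted p = 0.0265) and TGFB3 by 2.01 ± 0.43 (limma adjusted p = 0.0398), each higher in 5 of 6 pigs. Neither call held in every alternative: without secretome pig 11, 7 of the 86 rose and 1 fell, and with scan series as a covariate 0 rose.

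The genes whose levels ran most like the mean of the 7 over 24 arrays, among 6435 named genes, were TNC (Pearson's r = 0.987), CCDC80 (0.984), OLFML2B (0.979), PTN (0.979) and PI16 (0.978). With the mean of each region and arm removed, TNC (0.959) and CCDC80 (0.946) still led, followed by NKAIN3 (0.939), CD9 (0.929) and COL12A1 (0.928). Of the first 5, 4 stayed with quantile scaling and 3 in the authors' table; of the second 5, 2 did in each. One by one, COL11A1 ran closest to CTHRC1 (0.981), ACAN to TCTN3 (0.967), TNMD to SIX4 (0.965) and C1QTNF3 to TGFB3 (0.988), while COMP, CILP and FMOD all ran closest to CLEC11A (0.985, 0.934 and 0.989). All these arrays share pigs and scan series, and the values are descriptions.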

How the data were processed

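RNA of 24 heart samples was hybridized to 1-colour Agilent porcine arrays; per the labels, integrity numbers were above 6 and 100 ng RNA was labelled. The deposited scanner files hold intensity values, corrected for background in the scanner software (per the file headers, version 10.7.3.1 of Agilent Feature Extraction). The authors' deposited table holds log2 values of 33348 probes (26223 kept here), with limma 3.14.4 named in the submitters' processing notes; column medians ran from 7.684 to 7.692, and the method of normalization is not given in the sources used here. For 24 of 24 arrays the column under its name was the closest (correlation of probe deviations 0.728 to 0.822), and it served as an alternative.

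Groups came from the labels; arrays marked as not treated were taken as the medium arm. Processed signals of a probe's unflagged spots were averaged, scaled to the 75th percentile of the array and put on the log2 scale. The filter kept a probe with 3 or more of 24 arrays well above background (34362 of 43603 probes). Names, gene IDs and RefSeq accessions in the scanner files gave 1 symbol to 15035 probes, several to 39 and none to 28529. A gene was read from its brightest kept probe, chosen by the mean over all arrays. No genome coordinates are given, since the array files state no build.

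The fit used limma 3.58.1 with 1 mean per region and arm and a random effect of pig (correlation 0.548, and 0.204 with scan series as a covariate) with moderated tests, adjusted by Benjamini-Hochberg over all kept probes. Pigs give separate animals; same-pig arrays deviated together (21 of 21 pairs above 0.1, mean 0.582), as did arrays of a scan series. No 2 arrays were identical (correlations 0.814 to 0.991). The simulated data held a pig effect and no scan series effect. On them limma called 7 of 33962 unchanged probes between arms in the infarct core. Between infarct core and normal region it recovered 132 and 184 of 200 probes changed 2-fold and 4-fold.

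The 7 genes, the lists and the rule for named genes were chosen with earlier results of these data known. Named are the 7 genes; of each list, up to 3 genes with the largest difference past the threshold and the same sign in every pig; SOX9, SCX, RUNX2, MKX, SOX5 and SOX6; and the genes most like the 7. Alternatives changed the scaling, background correction, source of values, filter, block, scan series, slide, probe choice and pigs included. Software was R 4.3.3 with version 1.17.8 of data.table and statmod 1.5.0, and Python 3.11.15 with numpy 2.4.6, pandas 2.3.3, scipy 1.17.1 and matplotlib 3.10.9.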

Additional observations from a re-analysis of the deposited data

Results flagged for a closer look

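Of 48 groups of 4 or more arrays checked over the 16 probes, 3 held an array set apart from the rest of its group by a gap of more than 0.829 of the range, Dixon's limit for 4 samples; chance sets apart about 1 in 20 groups. All 3 were in the normal region of the secretome arm. COL11A1 probe 5 stood at -5.26 in secretome pig 16, against -7.02 to -6.89 in the other 3 pigs, and it was well above background in that array alone. COL11A1 probe 6 stood at -6.04 in secretome pig 15, against -7.17 to -7.01, with none of the 4 arrays well above background. ACAN probe 1 stood at -1.32 in secretome pig 15, against -2.60 to -2.53, with all arrays well above background.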

How the results depend on the processing

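For the 7 genes no comparison of arms and no interaction passed under any alternative run. The sign of the small infarct core differences between arms turned in several. For COL11A1 it was -0.0025 as the mean over its probes and -0.67 within scan series 2, and -0.25 to 0.53 leaving out 1 pig. For ACAN it was -0.029 with normexp, -0.00613 in the authors' table and -1.01 within series 2, and -0.55 to 0.60 leaving out 1 pig. Within series 2 it was -0.075 for COMP and -0.33 for CILP. For FMOD it was -0.038 with the percentile over detected probes, -0.041 with the scan series covariate and -0.54 within series 2, and -0.28 to 0.38 leaving out 1 pig. For C1QTNF3 it was 0.16 with that covariate, 0.34 with slide as the block and 0.23 within series 1, and -0.30 to 0.30 leaving out 1 pig. In the border zone COMP turned to 0.23 within series 1, and in the normal region TNMD turned to -0.024 with normexp and -0.067 in the authors' table. The interaction of arm with infarct core minus normal region turned within series 1 to 0.23 for COL11A1, 0.16 for ACAN, 0.39 for CILP and 0.13 for FMOD, and for TNMD to 0.58 with normexp, 0.57 in the authors' table and 0.0095 within series 2, with -1.0 to 0.063 leaving out 1 pig. The causes were not tested.

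Every infarct core minus normal region difference of the 7 genes kept its sign in each alternative, the lowest being 1.32 for TNMD and 2.01 for FMOD, both in the authors' table, where border zone minus normal region was 0.69 and 0.54. Of the 86 list genes, 38 were higher there in the authors' table against 58. Between border zone and normal region the count of 2 higher was 1 with quantile scaling, 0 with normexp, 0 in the authors' table, 1 with no filter, 5 with the filter at 12 arrays, 0 with the scan series covariate and with slide as the block, 9 (and 1 lower) within series 1 and 0 within series 2, and 0 to 7 (0 to 1 lower) leaving out 1 pig. Between infarct core and border zone 27 were higher and 3 lower within series 2, and 3 to 5 were lower leaving out 1 pig. Pigs pair the regions: with no replicate block 0 list genes were higher between border zone and normal region and 2 were lower between infarct core and border zone, and with pig as a fixed replicate block 0 were higher in the border zone; the block changed no other call of the list genes by over 1.5 times.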
